A study of Mus musculus with 6 samples.

Results

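Transcripts that the mouse gene annotation lists as TEC or as sense intronic were followed between 2 nuclear fractions of HL-1 cells, a line of beating mouse cardiomyocytes derived from atrial tumour cells. They were chosen from a deposited table of gene expression as every unique gene identifier of either type whose mean over both fractions was at least 0.5 FPKM, a unit that corrects fragment numbers for the length of the transcript and the size of the library. This left 238 of 28660 loci, namely 212 of 1032 TEC rows and 26 of 91 sense intronic rows. The chromatin pellet and the soluble nuclear extract were each sequenced as 3 libraries of HL-1 cells. The cells were grown with serum and norepinephrine, and no further treatment or genotype is given. Nuclei were released with detergent, synthetic ERCC spike-in RNAs were added to each fraction, ribosomal RNA was depleted and directional libraries were made. HL-1 is a single immortalised line, so the values describe this line in culture. The authors deposited 1 value per fraction and locus with the 3 libraries pooled, so replicate spread is unknown, no test was possible, and each value below stands without a replicate error. Depth is unknown, since FPKM keeps no counts.

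TEC is the label that manual annotators of the mouse genome give to regions with cDNA evidence that might hold a gene but still await experimental proof. A sense intronic transcript is a noncoding RNA placed within an intron of a gene, on the same strand and without overlap of its exons. Such an RNA lies within the primary transcript of another gene, and a TEC region may or may not do so. Unspliced introns and RNA beyond a polyadenylation site are produced at the chromatin template before they are removed. Nuclear fractionation separates RNA that remains in the chromatin pellet from RNA that has been released into the nucleoplasm.

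Few of these transcripts have a record of their own in RefSeq. Symbols were found for 224 members from their Ensembl identifiers, and 14 keep the clone name of the table. RefSeq on GRCm38.p6, the build also called mm10, had a record for 14 members: 11 noncoding RNAs, a small nucleolar RNA (Gm12238), a pseudogene (Gm3081) and the protein-coding Nedd4, which carries Gm7265 as a synonym. The start regions of 4 noncoding members are printed because they stand at both ends of the range of pellet over soluble values. Each runs from 250 bases before to 50 bases after the RefSeq start, 5′ to 3′ on the strand of the transcript. Capitals mark AATAAA, AAAAAAAA or TATAAA, searched on both strands. Gm12701 (chr4:100119377-100119676, plus strand) and 4930405O22Rik (chr17:63312924-63313223, minus strand) were far higher in the pellet. Particl (chr6:72438433-72438732, plus strand) and 1700001G17Rik (chr1:33669574-33669873, plus strand) were close to equal in both fractions after the spike-in scaling described below. Before it they were lower in the pellet, at 0.658 against 1.999 soluble FPKM for Particl and 0.358 against 1.29 for 1700001G17Rik.
Gm12701: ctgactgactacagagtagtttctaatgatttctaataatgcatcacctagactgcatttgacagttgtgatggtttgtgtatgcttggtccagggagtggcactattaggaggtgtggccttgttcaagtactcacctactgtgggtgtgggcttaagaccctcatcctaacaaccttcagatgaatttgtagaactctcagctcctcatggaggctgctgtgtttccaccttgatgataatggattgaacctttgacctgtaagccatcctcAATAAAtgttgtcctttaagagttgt
4930405O22Rik: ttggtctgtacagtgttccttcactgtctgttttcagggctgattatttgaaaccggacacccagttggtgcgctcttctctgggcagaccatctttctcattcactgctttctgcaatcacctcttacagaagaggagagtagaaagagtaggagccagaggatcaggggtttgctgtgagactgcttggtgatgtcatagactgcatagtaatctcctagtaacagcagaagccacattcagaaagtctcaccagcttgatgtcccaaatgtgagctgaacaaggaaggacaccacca
Particl: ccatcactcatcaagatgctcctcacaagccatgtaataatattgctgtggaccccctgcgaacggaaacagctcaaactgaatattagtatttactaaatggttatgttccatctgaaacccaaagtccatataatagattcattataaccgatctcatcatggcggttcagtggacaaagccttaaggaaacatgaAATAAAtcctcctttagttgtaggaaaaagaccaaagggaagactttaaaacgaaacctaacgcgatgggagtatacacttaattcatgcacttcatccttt
1700001G17Rik: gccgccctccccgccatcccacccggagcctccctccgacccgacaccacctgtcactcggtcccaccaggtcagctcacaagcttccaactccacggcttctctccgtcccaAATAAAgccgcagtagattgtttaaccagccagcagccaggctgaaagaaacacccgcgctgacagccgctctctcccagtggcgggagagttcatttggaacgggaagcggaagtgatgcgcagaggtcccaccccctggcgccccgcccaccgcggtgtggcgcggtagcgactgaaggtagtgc
The window of Gm12701 was 43.3% GC with 0 CG dinucleotides, and that of 4930405O22Rik was 47.3% GC with 2. Particl had 38.7% GC and 7 CG dinucleotides, while 1700001G17Rik had 64.3% GC and 23. Over 32851 RefSeq windows of the same length the medians were 52.7% GC and 7 CG dinucleotides. The pair near equality thus held both the lowest and the highest GC content of the 4. AATAAA was found in 3 of the 4 windows, and 19.6% of all windows hold it, against 7.87% for AAAAAAAA and 13.6% for TATAAA. A match only says that the letters are there.

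Other members lay across the start region of a protein-coding gene, and all 6 are shown as the bases that the member covers of its neighbour's window, on the strand of the neighbour and with each CG dinucleotide in capitals. Gm38345 covers chr19:37434591-37434656 before Hhex, a homeobox gene, Gm10766 covers chr2:127269979-127270054 before Stard7, which encodes a lipid transfer protein, Gm10517 covers chr1:182408917-182409021 before Trp53bp2, which encodes a p53-binding protein, and Gm43823 covers chr3:121723287-121723402 before F3, the tissue factor gene. These 4 neighbours are on the plus strand. On the minus strand, Gm37008 covers chr7:92637208-92637392 before Ankrd42, and Gm44907 covers chr7:90457252-90457453 before Tmem126a, which encodes a mitochondrial protein.
Gm38345 at Hhex: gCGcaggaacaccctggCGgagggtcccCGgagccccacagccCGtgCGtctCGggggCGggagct
Gm10766 at Stard7: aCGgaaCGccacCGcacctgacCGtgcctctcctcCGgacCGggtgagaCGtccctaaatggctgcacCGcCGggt
Gm10517 at Trp53bp2: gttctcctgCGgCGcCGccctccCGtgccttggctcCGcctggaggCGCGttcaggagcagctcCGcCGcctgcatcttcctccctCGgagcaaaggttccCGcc
Gm43823 at F3: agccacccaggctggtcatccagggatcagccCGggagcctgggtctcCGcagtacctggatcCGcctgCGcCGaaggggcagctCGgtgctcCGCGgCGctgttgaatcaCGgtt
Gm37008 at Ankrd42: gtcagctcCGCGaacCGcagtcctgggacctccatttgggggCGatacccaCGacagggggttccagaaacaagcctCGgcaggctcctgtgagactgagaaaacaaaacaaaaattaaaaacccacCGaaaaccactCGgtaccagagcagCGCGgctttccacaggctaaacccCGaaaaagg
Gm44907 at Tmem126a: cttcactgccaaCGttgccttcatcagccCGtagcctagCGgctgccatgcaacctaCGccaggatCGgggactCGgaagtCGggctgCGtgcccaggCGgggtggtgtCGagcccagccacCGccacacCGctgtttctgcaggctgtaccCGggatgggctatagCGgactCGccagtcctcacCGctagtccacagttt
The stretches on the plus strand were 77.3%, 68.4%, 71.4% and 68.1% GC in that order and held 7, 9, 11 and 10 CG dinucleotides. Those on the minus strand were longer, at 55.1% and 64.4% GC with 11 and 16 CG dinucleotides, and their members had the highest pellet over soluble values of the 6.

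The library identity was checked on cardiomyocyte genes. Of 12 markers listed, 10 were in the table and all 10 passed 0.5 FPKM, with soluble values from 4.67 to 1119 FPKM, the highest being Myl7, the atrial myosin light chain. Fibroblast markers passed in 3 of the 5 in the table, with Col3a1 highest at 340 soluble FPKM, endothelial markers in 2 of 5, immune in 1 of 4, neuronal in 1 of 3 and skeletal muscle in 0 of 3. The part of other cell states in any value below was not tested. In RNA from a culture, more RNA in each nucleus and more nuclei with the RNA cannot be told apart.

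Values are compared between fractions as the log2 of pellet over soluble FPKM after the pellet was multiplied by 3.37, the factor that brings the 82 spike-ins onto a common line (the spike-in scale). A value of 1 is a 2-fold higher pellet level once the spike-ins are set equal, and removing the factor (the FPKM scale) lowers every value by 1.75. Spike-ins scattered about the factor with an SD of 0.12 on the log2 scale at a mean of at least 0.5 FPKM (n = 47 spike-ins). The SD was 0.37 at soluble values from 0.1 to 1 FPKM (n = 16 spike-ins) and 0.85 under a mean of 0.05 FPKM (n = 19 spike-ins). That scatter is the sole error the table allows, and it covers neither the cells nor the fractionation.

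The members were low in the soluble extract and several times higher in the pellet. Their soluble level had a median of 0.406 FPKM, with middle values (quartiles) of 0.226 and 0.893 FPKM and a range of 0.00175 to 962 FPKM. In the pellet the median was 1.38 FPKM before the factor, the quartiles 0.993 and 2.38 FPKM, and the range 0.184 to 3935 FPKM. On the spike-in scale 214 of the 238 members (89.9%) had a pellet level at least 2-fold higher, 24 lay within 2-fold and 0 were at least 2-fold lower. Over all 13917 loci that passed the same level the share higher was 31.9% and the share lower 10.5%. The median log2 value of the members was 3.85, which is 14.4-fold, with quartiles of 2.98 and 4.48, beside a median of 0.41 over all loci. At 4-fold, 193 members were higher, beside 14.7% of all loci. On the FPKM scale 182 members were at least 2-fold higher (9.66% of all loci) and 20 were at least 2-fold lower (61.2% of all loci).

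**Figure D1:**
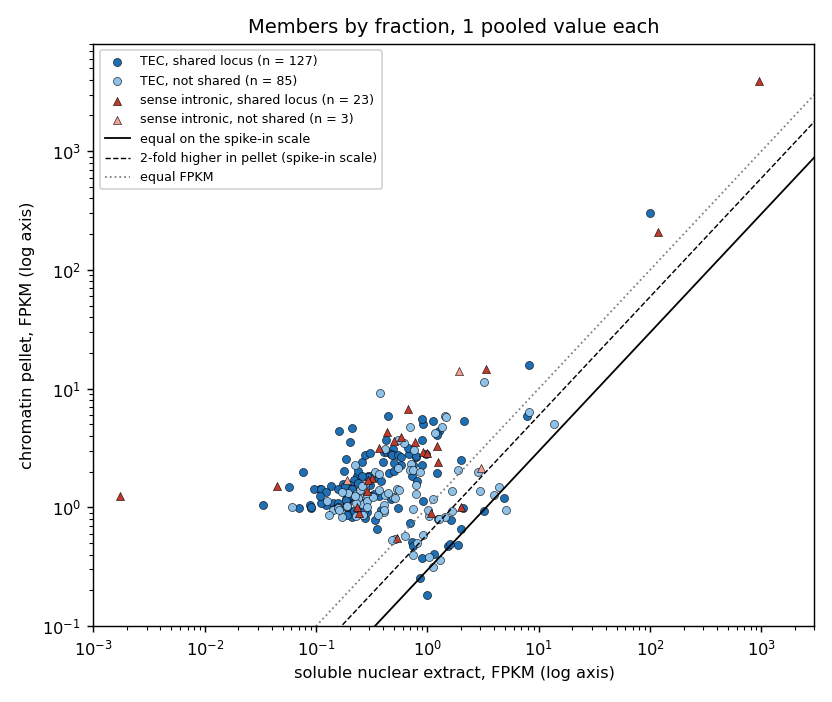
Each point is a member, with soluble nuclear FPKM on the horizontal log axis and chromatin pellet FPKM on the vertical log axis, both before the spike-in factor. Colours and shapes give RNA type and whether the locus is shared with a protein-coding row, and most members lie between 0.2 and 1 FPKM in the soluble extract and above the solid line of equal level on the spike-in scale.

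The level rule shapes these counts. A member that reached the mean of 0.5 FPKM while under 0.5 FPKM in the soluble extract must be above 0.5 FPKM in the pellet, and so had to be more than 2-fold higher on the spike-in scale. This held for 137 members, all of which were higher, so that their count follows from the rule. The other 101 members had at least 0.5 FPKM in the soluble extract, and 77 of them (76.2%) were at least 2-fold higher, with a median of 2.62, beside 28.6% of all loci that passed both levels. A pellet level under 0.5 FPKM was seen in 12 members, 1 of which was at least 2-fold higher, and their median was 0.04. Of rows of the same types under the rule's level, 792 of 885 were at least 2-fold higher and 8 at least 2-fold lower. Their median log2 value was 3.35 and their median soluble level 0.0214 FPKM. The share higher among all loci under that level was not computed. It exceeds 49.8%, the share at any level, because only 31.9% of the loci that passed were higher. With no level rule, 1006 of 1123 rows were higher, beside 49.8% of all loci at any level. Nearest the threshold, log2 values ran from 1.87 to 4.47. Just inside, Gm48734 had a mean of 0.501 FPKM and a log2 value of 4.47, Gm37820 a mean of 0.503 and 4.06, and Gm38279 a mean of 0.506 and 1.87. Just outside, Gm44760 had a mean of 0.4998 FPKM and a log2 value of 3.71, Gm44280 a mean of 0.498 and 3.83, and Gm38357 a mean of 0.494 and 2.44.

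Among RNA types, the members had the highest median of those set side by side, an order that the level rule shapes. Of the members, 137 were under 0.5 FPKM in the soluble extract and so had to be higher in the pellet. The median soluble level was 0.406 FPKM for members and 1.19 FPKM for lincRNAs. The other types were not recomputed at a soluble level of at least 0.5 FPKM. TEC members had a median log2 value of 3.83, with 189 of 212 at least 2-fold higher, and sense intronic members a median of 3.92, with 25 of 26. At the same level rule the median was 1.76 for 370 lincRNAs, 1.48 for 192 processed transcripts, 1.30 for 236 antisense RNAs, 0.64 for 17 bidirectional promoter noncoding RNAs and 0.26 for 11397 protein-coding rows. Long noncoding RNAs known for acting at chromatin give a scale for these values: Firre, which organises nuclear domains, went from 1.59 to 8.80 FPKM at a log2 value of 4.22, and Pvt1, a transcript beside Myc, from 7.54 to 16.1 FPKM at 2.85. Tug1, which is found in both nucleus and cytoplasm, went from 31.4 to 16.0 FPKM at 0.78. Of the other noncoding RNAs listed for scale, Airn (7.66 and 46.9 FPKM) and Mir17hg (0.155 and 0.977 FPKM) also passed the level, at 4.37 and 4.41. The median of all members lay between Pvt1 and Firre and below Airn and Mir17hg. That of the 101 members with at least 0.5 soluble FPKM, 2.62, lay below Pvt1. A log2 value of 2.68, under which 90% of all loci stay, was exceeded by 50 of these 101 members (49.5%), beside 5.99% of all loci that passed both levels. Differences between RNA types were not tested.

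**Figure D2:**
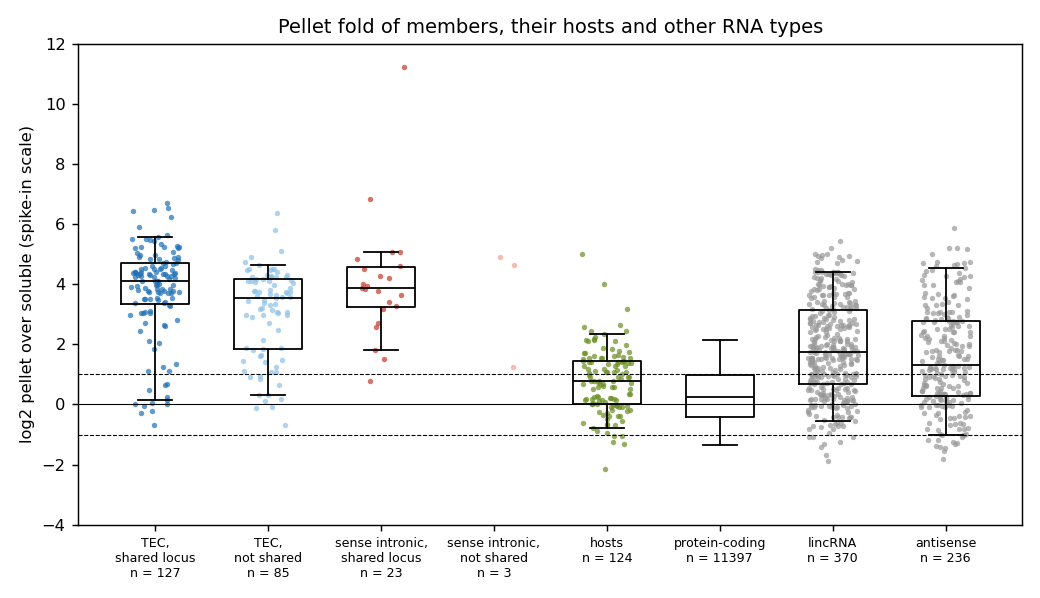
Log2 pellet over soluble level on the spike-in scale (vertical axis) for members by RNA type and locus class, their protein-coding hosts and other RNA types at the same level, with points for single loci (none drawn for protein-coding) and the number of loci below. Boxes show the quartiles and median and whiskers the 5th and 95th percentiles (points alone for the class of 3), dashed lines mark 2-fold, and the medians of the TEC and sense intronic classes lie above those of lincRNA, antisense and protein-coding loci while the boxes overlap in part.

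The level of a member and its distribution were related in opposite ways in the fractions. Across the 238 members Spearman's rho between soluble FPKM and log2 value was -0.78, and between pellet FPKM and log2 value 0.37. Both relations share a term with the ratio itself and come from the same pooled libraries, so they are descriptions. In steps of mean level the medians were 4.06 for 125 members from 0.5 to 1 FPKM, 3.76 for 69 from 1 to 2 FPKM, 3.80 for 34 from 2 to 5 FPKM and 3.03 for 10 members of 5 FPKM or more. In these steps 117, 60, 28 and 9 members were at least 2-fold higher, so the highest class held a single exception, 2900097C17Rik.

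The summed signal of the members came from a few loci. Members held 0.144% of all soluble FPKM and 0.590% of all pellet FPKM. Gm28967, Gm37235 and Gm12238 together made up 85.7% of the members' soluble sum and 90.2% of their pellet sum. Without them, 211 members were at least 2-fold higher and the median was 3.85, as with them.

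Gm28967 (ENSMUSG00000099587.1) was the most abundant member, at 962 FPKM in the soluble extract and 3935 FPKM in the pellet, a log2 value of 3.79. The table lists it as sense intronic in the locus chr6:125168007-125191701 together with Ncapd2, a subunit of condensin, and Scarna10, a small RNA of Cajal bodies. Ncapd2 had 119 and 55.9 FPKM, a log2 value of 0.67, and Scarna10 had 6.42 and 80.9 FPKM, a log2 value of 5.41. With the division of fragments between Gm28967 and Scarna10 not given in the sources used here, their separate levels are uncertain. Gm12238 (ENSMUSG00000087342.1), a sense intronic row that RefSeq types as a small nucleolar RNA of 124 bases, had 117 and 209 FPKM, a log2 value of 2.59. It shares chr11:55469685-55504838 with G3bp1, an RNA-binding protein of stress granules, at 51.7 and 22.7 FPKM and 0.57, and with the small nucleolar RNA row Gm22884 at 69.8 and 268 FPKM and 3.70. In both loci the small RNA rows were several-fold higher in the pellet and the protein-coding host was less than 2-fold higher. The error of FPKM for a feature as short as 124 bases is unknown.

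Gm37235 (ENSMUSG00000102333.1), the most abundant TEC member, had 99.5 FPKM in the soluble extract and 303 FPKM in the pellet, a log2 value of 3.36. Its locus, chr7:143106362-143427042, holds 12 rows, among them Kcnq1, which encodes a cardiac potassium channel, and Kcnq1ot1, the antisense RNA of the imprinted domain. Kcnq1 had 3.01 and 2.66 FPKM, a log2 value of 1.58, and the row named Kcnq1ot1 had 0.0126 and 0.154 FPKM. A further TEC member of the locus, Gm38321, had 0.736 and 2.28 FPKM, a log2 value of 3.38, nearly that of Gm37235 at a far lower level. Where Gm37235 lies within the locus is unknown, and whether its level includes fragments of another row was not tested.

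The remaining members of highest pellet level in each class were lower by an order of magnitude or more. BC002189, sense intronic in Trim55, a muscle-specific ubiquitin ligase of the sarcomere, had 3.36 and 14.7 FPKM, a log2 value of 3.88. Trim55 itself had 32.4 and 42.0 FPKM, a log2 value of 2.13. Gm17530, in the locus of Dop1a, had 8.11 and 15.7 FPKM at 2.71, and Dop1a had 7.18 and 11.5 FPKM at 2.44, so the member was as abundant as its host. Gm37206, in the locus of the RNA-binding protein Rbm14, had 0.441 and 5.92 FPKM at 5.50, and Rbm14 had 28.5 and 17.9 FPKM at 1.08. Rbm14 is 1 of 5 protein-coding rows of its locus, and Dop1a 1 of 2. Among members without a protein-coding row in the locus, Gm37008 had 3.22 and 11.4 FPKM at 3.57, Gm47089 had 0.373 and 9.20 FPKM at 6.38, and 9430081H08Rik, 40 bases from Hyou1, had 8.13 and 6.36 FPKM at 1.40. The sense intronic members of that class were Gm28119 at 1.92 and 14.2 FPKM and 4.63, Gm43566 at 3.02 and 2.14 FPKM and 1.26, and Gm26930 at 0.191 and 1.70 FPKM and 4.91. These 9 members all had more than 1.5 FPKM in the pellet, yet their log2 values ran from 1.26 to 6.38.

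A locus string, the coordinates given for a row, was shared with a protein-coding row by 150 members, and 88 shared it with none. The table gives 1 span to all genes assembled together, so the place of a sharing member within its span is unknown. The 150 sharing members had a median log2 value of 4.05 (quartiles 3.29 and 4.67), and 137 of them were at least 2-fold higher. The 88 others had a median of 3.56 (quartiles 1.83 and 4.20), and 77 were at least 2-fold higher. Over all loci that passed the same level the share was 31.9%. Sharing TEC members were at a median of 4.10 (n = 127) against 3.55 for the other TEC members (n = 85). For sense intronic rows the order was the opposite, at 3.88 (n = 23) against 4.63, the latter from only 3 rows. Sharing members were lower in the soluble extract, with a median of 0.345 FPKM against 0.516 FPKM, and slightly higher in the pellet, 1.5 against 1.29 FPKM. The difference of 0.49 between the class medians was not tested. It was 0.18 with no level rule and 0.99 among rows of at least 0.5 soluble FPKM.

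Hosts were then set beside their members, taking as host the protein-coding row of the same string with the highest mean FPKM. This gave 150 pairs in 124 host loci. The log2 value of the member was above that of its host in 139 pairs, at least 2-fold above in 131 and at least 2-fold below in 6. The median difference was 3.08 on the log2 scale, with quartiles of 2.01 and 4.01, and in the 57 pairs of rows with at least 0.5 soluble FPKM the member was above its host in 45, with a median difference of 1.78. Member and host come from the same libraries, so the spike-in factor cancels in this difference. The hosts themselves had a median log2 value of 0.79, with quartiles of 0.01 and 1.45. Of the 124, 54 (43.5%) were higher by that measure and 5 at least 2-fold lower. Of all 11397 protein-coding rows with a mean of at least 0.5 FPKM, 24.0% were at least 2-fold higher. Those rows were not matched to the hosts, with a median soluble level of 12.9 against 24.99 FPKM, and 5 hosts were under the level rule. Hosts were also long: their RefSeq span had a median of 59.1 kb against 24.7 kb for the 11044 protein-coding loci with a span. The part of gene length in these values was not tested.

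Hosts were much more abundant than the members. Their median level was 24.99 FPKM in the soluble extract and 11.9 FPKM in the pellet. The median member had 1.59% of its host's soluble FPKM but 12.8% of its host's pellet FPKM. In 16 pairs the member was above its host in the pellet and in 8 it was above in the soluble extract. Levels of member and host hardly went together. Spearman's rho over the 150 pairs was 0.12 for pellet FPKM, 0.19 for soluble FPKM and 0.11 for the log2 value, with several pairs sharing a host. Over the 23 sense intronic pairs alone it was 0.52, 0.64 and 0.47, and over the 127 TEC pairs 0.05, 0.12 and 0.04, again as descriptions from shared libraries. All 23 sense intronic members had a log2 value more than 2-fold above that of their host, with a median difference of 2.94, and 116 of the 127 TEC members were above theirs, with a median difference of 3.09. Some of these 23 (median 0.581 FPKM) and most of the 127 (median 0.307 FPKM) were under 0.5 FPKM in the soluble extract. For those the level rule alone fixed a pellet level more than 2-fold higher. Restricted to the 102 members with a single protein-coding row in the string, 93 were above the host and the median difference was 2.93.

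**Figure D3:**
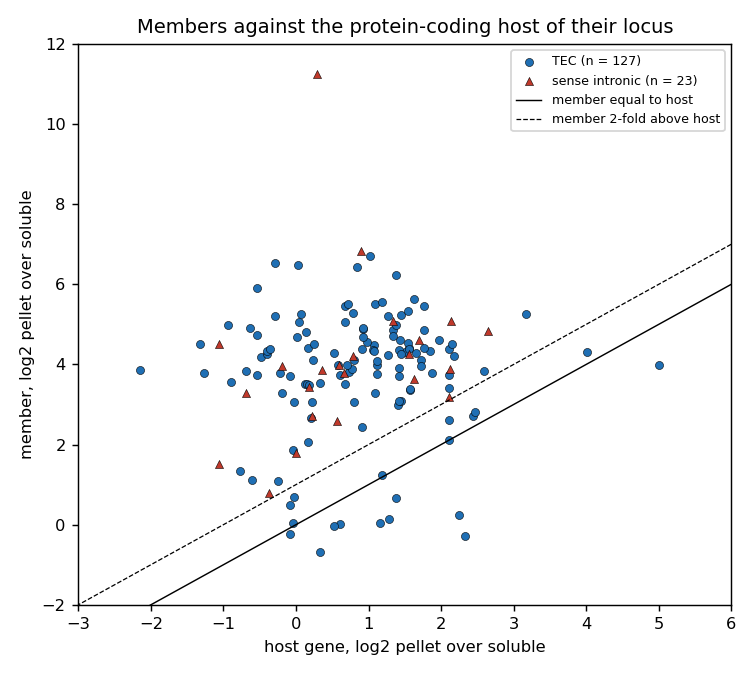
Log2 pellet over soluble level of each member (vertical axis) against that of the protein-coding host of its locus (horizontal axis), both on the spike-in scale, for 150 pairs. The diagonal marks equal values, and 139 of the 150 points lie above it.

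The 5 widest differences from a host are given first. AU015336, sense intronic in P3h2, a collagen prolyl hydroxylase, had 0.00175 FPKM in the soluble extract and 1.26 FPKM in the pellet, a log2 value of 11.24. P3h2 had 29.5 and 10.7 FPKM, a log2 value of 0.29. The soluble value of AU015336 was the lowest of all members, and the error of a ratio with so low a soluble value is unknown. Gm37420, in the locus of Trim13, had 0.160 and 4.36 FPKM at 6.53, against -0.29 for Trim13 at 1.37 and 0.331 FPKM. Gm37084, in the locus of the stress kinase gene Mapkapk2, had 0.0567 and 1.49 FPKM at 6.47, against 0.02 for Mapkapk2 at 74.1 and 22.3 FPKM. Gm37940, in the locus of Snd1, a nuclease of RNA regulation, had 0.201 and 3.56 FPKM at 5.90, against -0.54 for Snd1 at 287 and 58.5 FPKM. Gm37274, in the locus of Romo1, a small mitochondrial protein, had 0.205 and 0.879 FPKM at 3.85, against -2.15 for Romo1 at 250.3 and 16.8 FPKM. Apart from AU015336, these pairs differed by 6.0 to 6.82 on the log2 scale. The locus of Gm37274 holds 5 protein-coding rows, and those of Gm37420 and Gm37940 hold 2 each. For these 3 members the host is only the row of highest mean FPKM, and which gene they lie nearest is unknown. Large log2 values were also seen in Gm12701 in the locus of the receptor Ror1, at 0.0447 and 1.51 FPKM and 6.83, and in Gm37297 in the locus of Agap1, at 0.0336 and 1.04 FPKM and 6.70. Ror1 and Agap1 were at 0.90 and 1.02.

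In 11 pairs the member was not above its host. The lowest difference was that of Gm4430 (ENSMUSG00000103009.1) in the locus of Slc20a1, a phosphate transporter. This member had 4.90 and 1.19 FPKM, a log2 value of -0.28, and Slc20a1 had 12.3 and 18.3 FPKM, a log2 value of 2.33. A second identifier with the same symbol (ENSMUSG00000103532.1) lies in a span of its own that ends 126 bases before that locus, and it had 1.02 and 0.382 FPKM at 0.33. Both Gm4430 rows were lower in the pellet on the FPKM scale, whereas Slc20a1 was higher on both scales. RP23-349N4.5, in the locus of Tex9, had 1.15 and 0.403 FPKM at 0.24, against 2.25 for Tex9. Particl, a noncoding RNA transcribed from the region of Mat2a, which makes S-adenosylmethionine, had 1.999 and 0.658 FPKM at 0.15, and Mat2a had 40.8 and 29.6 FPKM at 1.29. 4933431K14Rik in the locus of Ibtk had 1.54 and 0.470 FPKM at 0.04, against 1.16 for Ibtk. Gm43667, in the locus of Fxr1, an RNA-binding protein abundant in muscle, had the lowest log2 value of all members, -0.69, from 0.999 and 0.184 FPKM, and Fxr1 was at 0.34. B230377A18Rik in the locus of Rcc1l was at -0.22 from 1.89 and 0.480 FPKM, against -0.09 for Rcc1l. Fxr1 is 1 of 4 protein-coding rows of its locus, and Tex9 1 of 2. The other 5 pairs were 4930577N17Rik with Elf2, Gm10524 with Zfp236, Gm37646 with Naa15, Gm38329 with Rabgap1l and Gm44033 with Ghrl.

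Most loci held a single member. The 238 members lay in 209 locus strings, 190 of which held 1 member, and the other 19 held 48 members in all. Within these 19 the range of log2 values had a median of 0.82, and it was under 1 in 10 of them. The Rabgap1l locus on chromosome 1 held 6 members, from 2.10 for Gm38329 to 4.39 for 6720464F23Rik, beside 2.11 for Rabgap1l, a GTPase-activating protein gene. In the locus of Rc3h1, which encodes the mRNA-decay factor roquin, 3 members lay between 3.75 and 4.09 and the host at 1.12. The locus of Rpe, an enzyme of the pentose phosphate pathway, had 3 members between 3.51 and 5.46 and the host at 0.67. Kansl1l, the other protein-coding row of that locus, had 7.28 and 8.75 FPKM at 2.02. The 3 members in the Snd1 locus lay between 3.74 and 5.90, above a host at -0.54. Lrrc4, the other protein-coding row there, had 0.00634 and 0.0103 FPKM at 2.45. Members of a locus overlap or neighbour each other and are not independent measurements.

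**Figure D4:**
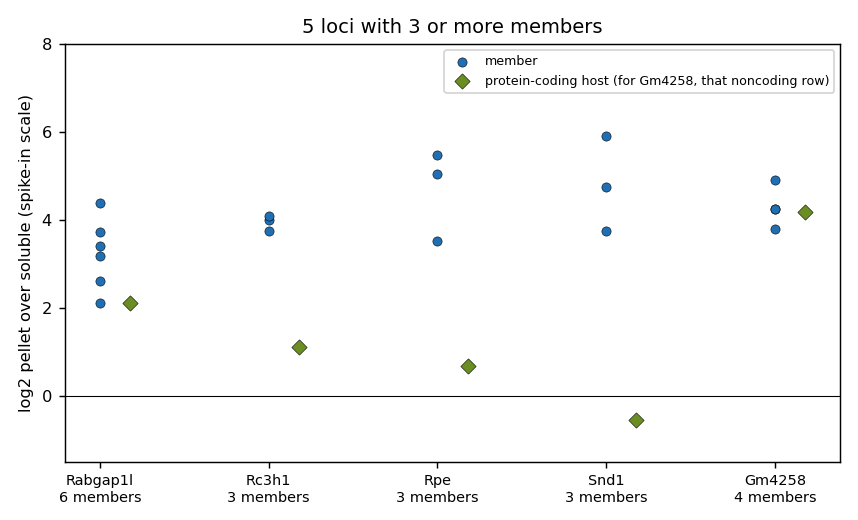
Log2 pellet over soluble level on the spike-in scale (vertical axis) in 5 loci that hold 3 or more members, with circles for members and diamonds for the protein-coding host or, in the locus on the right, the noncoding row Gm4258. Members lie above the host in the Rc3h1, Rpe and Snd1 loci, and in the Rabgap1l locus the lowest of 6 members is level with it. The Rpe and Snd1 loci each hold another protein-coding row of lower level, not drawn.

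A further such locus, chr1:137898595-138000384, holds no protein-coding row and is the primary transcript region of miR-181a-1 and miR-181b-1. The noncoding row Gm4258 had 0.639 and 3.42 FPKM, a log2 value of 4.17, and its 4 members lay between 3.80 and 4.91, so that members and the longer noncoding row had like values. Another microRNA host region held Gm28119, whose locus chr9:41376397-41617772 holds Mir100, Mirlet7a-2 and Mir125b-1 in RefSeq. The noncoding row 3110039I08Rik of that locus had 5.16 and 27.5 FPKM at 4.17, close to the 4.63 of Gm28119. Across all members, 14 shared a string with noncoding rows only. They had a median of 4.21, with 13 at least 2-fold higher (31.9% of all loci).

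A list of 74 cardiac genes (transcription factors, channels and sarcomere genes) had 60 that passed the level rule, and 2 of these (3.33%) had a member in their locus, beside 163 of all 11397 protein-coding rows (1.43%). Kcnq1 hosted the 2 members given above. Meis1, a homeobox gene of heart development, hosted 2610001A08Rik, which had 0.491 and 3.12 FPKM at 4.42, against 26.3 and 22.9 FPKM at 1.55 for Meis1. A further member, chosen after its values were seen, lay 821 bases past the 3′ end of Tbx20, a cardiac transcription factor. This member, RP24-174I18.1 (chr9:24718138-24719991), had 1.48 and 5.82 FPKM at 3.73, and Tbx20 had 99.4 and 51.3 FPKM at 0.80.

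For 74 members the table gave a span of their own, of 1816 bases at the median and 166 to 7726 bases in all, so their place beside RefSeq genes could be read. These had a median log2 value of 3.42, and 64 were at least 2-fold higher (31.9% of all loci). The strand of the members is not in the table, and positions are given by the strand of the nearest protein-coding gene. Past the 3′ end of a gene within 10 kb lay 23 members, at distances of 35 to 9154 bases. Their values were narrowly grouped, with a median of 3.46 and quartiles of 3.06 and 3.76. Most were under 0.5 FPKM in the soluble extract (median 0.416 FPKM), where the level rule alone requires more than 2-fold. Of the 23, 22 were at least 2-fold higher (31.9% of all loci) and between 2 and 5. The exception was Gm44950, 492 bases past Arpin, at 3.99 and 1.27 FPKM and 0.10. The genes they follow had a median of 1.12, and in all 22 with a row in the table the member was above the gene. At the median such a member had 3.32% of its gene's soluble FPKM and 19.7% of its pellet FPKM, and 1 member was above its gene in the pellet.

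Before a 5′ start, or across the start region, lay 13 members, and these were closer to equality. Their median was 1.83, with quartiles of 1.44 and 3.57, and 10 of 13 were at least 2-fold higher (31.9% of all loci). Their median soluble level was 0.742 FPKM, so the level rule fixed fewer of these values. Those across a start region are the 6 whose sequences are given above. Gm38345 at Hhex had 1.13 and 0.313 FPKM at -0.10, beside -0.41 for Hhex at 2.30 and 0.513 FPKM. Gm10766 at Stard7 had 0.627 and 0.571 FPKM at 1.62, Gm10517 at Trp53bp2 0.517 and 0.546 FPKM at 1.83, and Gm43823 at F3 0.742 and 0.976 FPKM at 2.15. The other two, Gm37008 at Ankrd42 and Gm44907 at Tmem126a, were at 3.57 and 4.10. In all 6 the member was above the gene it precedes. Upstream of a start region, Gm34220 before Yy1, a ubiquitous zinc-finger factor, had 1.12 and 1.17 FPKM at 1.82, beside 0.12 for Yy1, and 1110025M09Rik before Ep300, a histone acetyltransferase gene, had 1.45 and 0.835 FPKM at 0.96, beside 1.31 for Ep300. The median past 3′ ends exceeded that at or before 5′ starts by 1.62. With neighbours within 5 kb it exceeded it by 1.82, but among members with a mean of at least 1 FPKM by 0.53 only. Among the 19 members of these classes with at least 0.5 soluble FPKM it exceeded it by 1.51. The classes overlapped in their values, and the difference was not tested. The 15 members over 10 kb from any RefSeq protein-coding gene had a median of 3.89, with 12 at least 2-fold higher (31.9% of all loci). Some of these 15 overlapped RefSeq noncoding genes, such as Gm48734 and Gm48735 at Platr25 (4.47 and 4.23) and RP23-330G24.3 at Kantr (0.64). For 8 members the strand of the nearest gene was not known, and their median was 1.45.

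**Figure D5:**
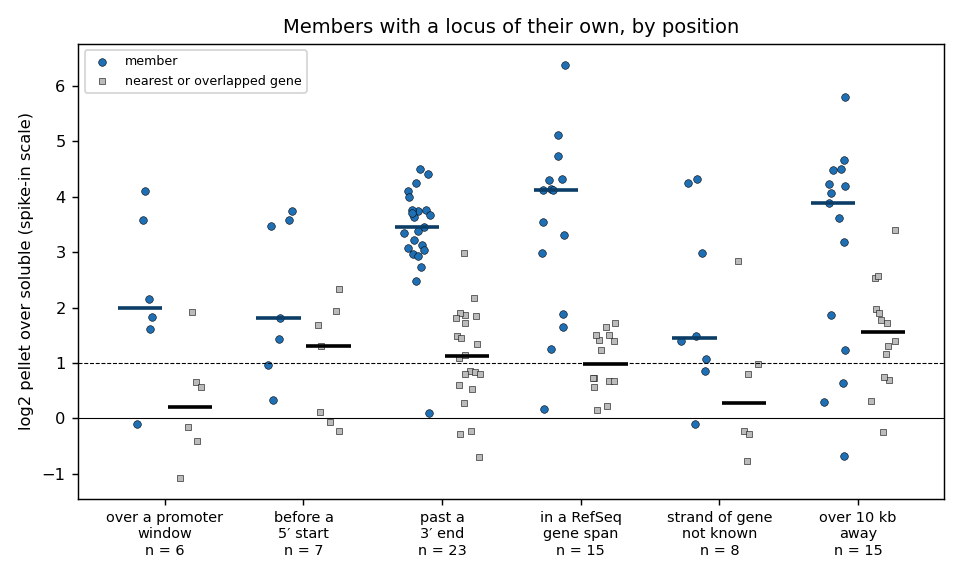
Log2 pellet over soluble level on the spike-in scale (vertical axis) of the 74 members with a span of their own, by position relative to the nearest RefSeq protein-coding gene (horizontal axis), with squares for that gene and bars for medians. The 23 members past a 3′ end sit mostly between 2 and 5, and those over or before a start spread from near 0 to about 4.

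A RefSeq gene span held 14 of these members entirely and 1 in part (RP23-263M10.12 at Ncbp3), and none fell within a locus that the table gave for that gene. Their median was 4.12, 14 were at least 2-fold higher (31.9% of all loci), and 13 of the 14 whose gene had a row were above it. The table's locus began downstream of 8 of them, 3703 to 307544 bases away, and these had a median of 4.23. Gm47089 and Gm47087 both lay in the span of Maml2, a coactivator of Notch signalling. Gm47089, a feature of 166 bases, had 0.373 and 9.20 FPKM at 6.38, the highest value in this class. The error of FPKM for so short a feature is unknown. Gm47087 had 0.224 and 2.29 FPKM at 5.11. Maml2 had 1.60 and 1.34 FPKM at 1.5, so both members were above it in the pellet. Gm45477 and Gm45354, in the span of the chromatin-remodelling subunit gene Gatad2b, were at 4.14 and 4.32 and their gene at 0.73. Past the end of the table's locus lay 5 members with a median of 1.88, the lowest being Gm44250 in Pon3 at 0.17 from 4.42 and 1.48 FPKM.

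Members near equality between the fractions included parts of known noncoding genes. 2900097C17Rik (chr2:156391831-156392979) lies at the end of the RefSeq record of Norad, a noncoding RNA that binds Pumilio proteins in the cytoplasm. It had 13.7 and 5.01 FPKM, a log2 value of 0.30, the highest soluble level among members outside a protein-coding locus. RP23-330G24.3, which overlaps Kantr, a noncoding RNA beside Kdm5c, had 2.99 and 1.38 FPKM at 0.64. D330025C20Rik in the locus of Kcng2 had 1.61 and 0.488 FPKM at 0.03, and 1700001G17Rik, 16 bases from Prim2, a DNA primase subunit gene, had 1.29 and 0.358 FPKM at -0.10. Gm43444 (chr3:121020486-121020776) lay 134621 bases from the nearest RefSeq protein-coding gene and had 5.12 and 0.945 FPKM at -0.68. On the FPKM scale all 5 were lower in the pellet than in the soluble extract, whereas BC002189, Gm37206 and Gm47089 were higher on both scales.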

How the data were processed

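Nuclear RNA of HL-1 cells was sequenced as 3 libraries each of chromatin pellet and soluble extract. The submitters' processing notes name HISAT2, SAMtools, Cufflinks, bedtools, Cuffdiff and mm10, with versions, order and settings (strand use included) not given in the sources used here. Per the file headers, the authors deposited 1 FPKM value per fraction and locus, a pellet signal rescaled by the spike-ins, the ratio of that signal to soluble FPKM, and log10 values of that ratio and of the summed signal. The FPKM columns were used here, and the rescaling factor was recomputed as the slope through the origin over 82 spike-ins. Of 30687 lines, 1945 repeated an identifier and were dropped, leaving 28742 with the spike-ins. No value was 0 and no pseudocount was added. With pooled values no test was run, and counts and medians are given. The members, gene lists and rules were chosen with earlier results of these data known. Genes named are the 3 of highest pellet FPKM per type and locus class, the 5 largest and smallest log2 values and differences from a host, the 3 on each side of the threshold, loci with 3 or more members and cardiac hosts. Members described by position or RefSeq record were chosen after their values were seen. The result of 1 locus with 3 members is not reported here. Positions, names and sequences are from RefSeq. Python 3.11.15, numpy 2.4.6, pandas 2.3.3 and matplotlib 3.10.9 were used, and the script was tested on simulated data.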

Additional observations from a re-analysis of the deposited data

How the results depend on the processing

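Not every result was recomputed under every alternative. Where recomputed, direction held with 1 exception: for sense intronic members alone, those that share a locus lay 0.76 lower at the median (a difference of -0.76), which rests on 3 members outside such loci. On the FPKM scale the median of the members was 2.10. Counts moved as fewer or more loci entered. With a mean of at least 1 FPKM, 97 members were higher in the pellet by 2-fold or more, 77 shared a locus and 69 were above their host. With soluble FPKM of at least 0.5 in place of the mean (104 rows) these counts were 77, 57 and 45, and with no level filter (1123 rows) 1006, 593 and 519. Sense intronic members alone gave 25 of 26 higher. The median spike-in ratio, a pseudocount of 0.1 FPKM, a 4-fold threshold and other definitions of host moved no count by 1.5 times or more. The same held when the 3 members of highest pellet FPKM were left out, a choice made after seeing the data. Counting any overlap with a protein-coding locus as sharing changed no value, so it does not test the split. By RefSeq, 14 members counted as not sharing lay entirely inside a protein-coding span. No paired analysis was possible because the 3 libraries of each fraction are pooled in 1 value.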

Other observations

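Members were unevenly spread over the chromosomes. Chromosome 1 held 58 of the 238 members (24.4%) and chromosome 9 held 39 (16.4%), beside 6.53% and 5.99% of all loci that passed the same level. Of the 1123 TEC and sense intronic rows at any level, 251 (22.4%) were on chromosome 1 and 129 (11.5%) on chromosome 9, so the table's rows of these types were themselves concentrated there before any level was applied. Chromosome X held 1 member.

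Small RNA rows were listed in the same locus as 25 members, among them microRNA rows for 10 members, small nucleolar RNA rows for 7, miscellaneous RNA rows for 5 and small nuclear RNA rows for 3. Antisense rows shared the locus of 41 members, lincRNA rows of 17 and processed transcript rows of 16. In the Rabgap1l locus the microRNA row Mir1927 had 1.16 FPKM in the soluble extract and 7.69 FPKM in the pellet, a log2 value of 4.48, beside 4.39 for the highest of the 6 members there. The assignment of reads among such rows was not given in the sources used here.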
